A study of Danio rerio with 6 samples.

Results

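The unexposed 12-month male zebrafish brain was described from 3 arrays, each hybridised with cDNA of 1 whole brain, out of 6 arrays in all. The fish were AB-strain males raised at 28 °C in 14 hours of light and 10 hours of dark. As embryos they had been kept at 0 ppb lead from before 2 hours until 72 hours after fertilization, alongside a group given lead acetate, and all fish then lived in lead-free water until dissection at 12 months. The brains are called unexposed 1, unexposed 2 and unexposed 3, and triplets of values below follow that order. The labels state neither the time of day of dissection nor whether fish shared a tank, so the spread between arrays is that of these 3 samples. The lead group enters no comparison here.

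The zebrafish brain combines the usual vertebrate neurons, oligodendrocytes and vascular cells with radial glia that keep their stem-cell character in the adult and do much of the work of mammalian astrocytes. It goes on producing neurons throughout life, and its radial glia carry a brain form of aromatase, the enzyme that makes oestrogens. Many zebrafish genes exist as a pair of copies, named a and b, left by a genome duplication in the ancestor of teleost fish. A whole-brain array reads RNA of all these cells at once, so fewer cells of a type and less RNA per cell cannot be told apart.

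Each array held 38489 target sequences, most read by 3 probes, together with 27114 random-sequence probes that match no intended transcript. A target's level is the log2 of its deposited value. The background limit of an array was the 95th percentile of its random probes, which lay at 10.91, 10.76 and 10.41. Targets summarise up to 3 probes, whereas this limit comes from single random probes and is the stricter choice. On medians of 3 random probes the 95th percentile would be 9.97, 9.83 and 9.57. The limit of single probes is used below unless stated. A target or gene above the limit on all 3 arrays is called above, one at or below it on all 3 is called within background, and one that differed between arrays is called mixed. Of all targets, 18967 (49.3%) were above, 15495 (40.3%) were within background and 4027 (10.5%) were mixed. With limma, testing each target's mean against the limit, 18148 targets (47.2%) were higher and 15002 (39%) were lower at a Benjamini-Hochberg adjusted p under 0.05. In that fit the standard error was 0.24 for every target, so the test separates targets only by their distance from the limit.

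**Figure D1:**
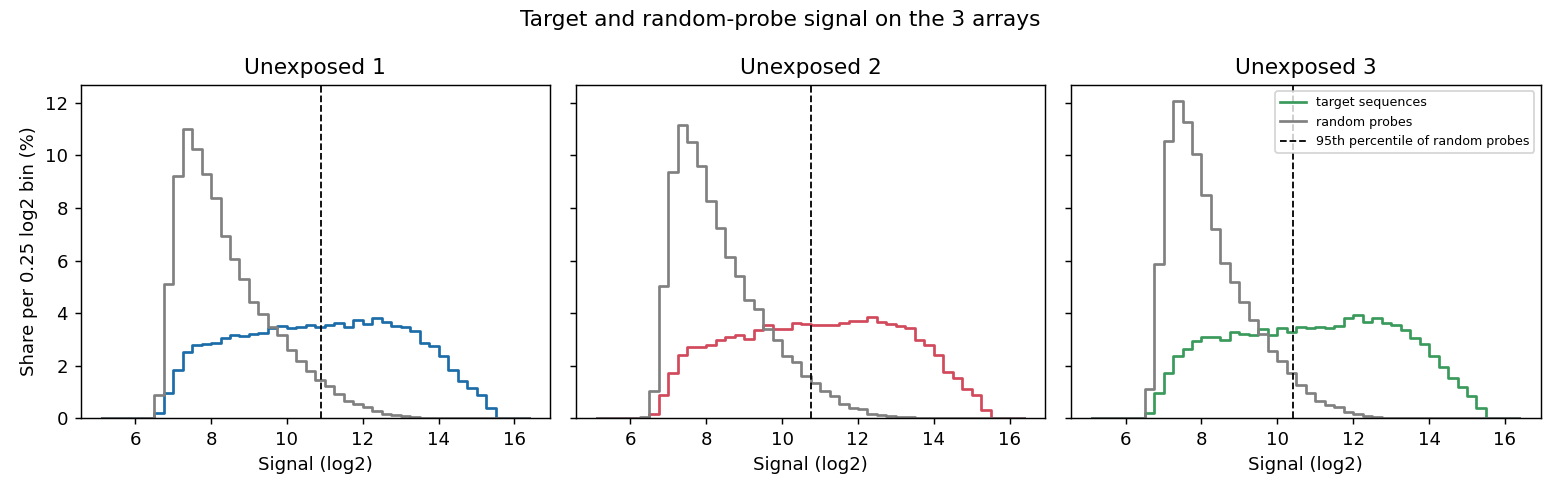
Histograms of signal (log2, x axis) on each of the 3 arrays, as the share of sequences in each bin (y axis, %), for the target sequences (coloured) and the 27114 random probes (grey); the dashed line is the 95th percentile of the random probes. Random probes peak well left of the limit, at 10.91, 10.76 and 10.41, whereas targets spread over the whole scale and 50.6%, 53.3% and 58.3% of them lie to its right.

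A zebrafish symbol, not in every case a current one, could be given to 9135 genes, each represented by its brightest forward-strand target. Among these, 5534 genes (60.6%) were above, 2669 (29.2%) were within background and 932 (10.2%) were mixed, and the median gene lay 1.03 above the limit on the log2 scale. These shares are the background against which the gene lists below are read. A call of within background is not absence: of 2312 genes read by several targets, 558 (24.1%) had both an above and a within-background target. Signal also depends on the probe sequence and flattens near the top of the scale, where the brightest single probe reached 15.92, so the levels of different genes are given as signals against background and not as an order of abundance.

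The 3 brains were alike over the whole array, with Pearson correlations across targets of 0.986 between unexposed 1 and 2, 0.976 between 1 and 3, and 0.972 between 2 and 3. Among targets above the limit the median SD between fish was 0.16, and 782 (4.12%) had a range of at least 1 log2. Unexposed 3 was the fish apart in 589 of those 782, unexposed 1 in 97 and unexposed 2 in 96. Of the named genes, 79 (0.865%) were higher by at least 1 log2 in unexposed 2 than in both other fish, 101 (1.11%) in unexposed 3 and 20 (0.219%) in unexposed 1. Genes lower by that much than in both others numbered 12, 55 and 12 in unexposed 2, 3 and 1.

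Unexposed 2 alone carried strong signals of photoreceptor genes, many of which the retina and the pineal gland both use. The ultraviolet cone opsin opn1sw1 (build Zv7, chromosome 4:10496026-10498709, the span of the array's source transcript) read 9.36, 14.76 and 8.99. For the green cone opsin opn1mw2 (Zv7, chromosome 6:21535628-21538768) the levels were 7.97, 14.33 and 8.25. In both genes unexposed 2 was among bright signals of the array while the other brains lay below their limits.

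The blue opsin opn1sw2 (9.75, 14.19 and 9.65), the red opsin opn1lw2 (9.18, 13.57 and 8.97) and opn1mw1 (8.56, 12.28 and 8.02) repeated this. So did rbp3, which carries retinoids between photoreceptors and pigment epithelium (9.21, 13.70 and 9.26), and the calcium sensor rcvrn2 (8.49, 13.32 and 8.46). Rod transducin gnat1 read 9.61, 12.46 and 8.84, its partner gngt1 read 8.91, 12.15 and 7.44, and the cone opsin kinase grk7a read 7.65, 11.13 and 7.59. Of 20 photoreceptor genes in the retina and pineal lists, a subset drawn after their values were seen, unexposed 2 was highest in 18 and higher by at least 1 log2 than both others in 17. Among all named genes those shares were 37.0% and 0.865%. In unexposed 2, 15 of the 20 exceeded its limit, against 1 in each of the other brains. The summed linear signal of the 20 was 12510, 137690 and 11312 intensity units. The gene above the limit in every brain was rho, rod opsin, at 11.33, 11.61 and 11.42, and only 1 of its 2 targets was above.

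Unexposed 2 was also highest in 11 of 17 lens genes (64.7%, beside 37.0% of all named genes), another subset drawn after values were seen. The median of its level minus the mean of the others was 0.23 log2, and it exceeded both others by at least 1 log2 in 0 genes. The lens crystallin cryaa read 8.67, 8.48 and 8.82 and the lens channel gene mipa 7.45, 7.53 and 7.54, both within background. In the pineal list, which shares photoreceptor genes with the subset above, unexposed 2 was highest in 11 of 14 genes and by at least 1 log2 in 10. The shared genes are counted in both, so the pineal counts and sums are not separate from those of the subset. Of all named genes these shares were 37.0% and 0.865%. The summed signal of the pineal list was 15791, 53621 and 15123 intensity units. The pineal enzyme aanat2, which makes melatonin's precursor in both pineal gland and retina, read 10.24, 11.14 and 9.56. Other genes high in unexposed 2 alone, picked after their values were seen, included the surface keratin krt4 (10.30, 12.70 and 10.45), the muscle parvalbumin pvalb4 (9.72, 11.25 and 9.59) and the eye-field factor rx1 (8.70, 11.11 and 8.47). Of 39 muscle genes unexposed 2 was highest in 18 (46.2%, beside 37.0% of all named genes) and by at least 1 log2 in 3. Of 26 skin and keratin genes it was highest in 19 (73.1%) and by at least 1 log2 in 2. Whether tissue adjoining the brain entered that sample was not tested.

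Anterior hox genes, which give hindbrain and spinal cord their segment identity, also leaned to unexposed 2. The 26 measured genes of hox groups 1 to 8 were a subset drawn after values were seen. Of these, 20 were highest in unexposed 2, and 5 were higher there by at least 1 log2 than in both others. Among all named genes those shares were 37.0% and 0.865%. On all 3 arrays 16 of the 26 were within background, beside 29.2% of all named genes. For hoxc5a the levels were 10.09, 11.90 and 9.94, for hoxb5a 10.51, 11.74 and 10.27, and for hoxa5a 9.25, 11.00 and 9.19. All 3 crossed the limit in unexposed 2 only. How much hindbrain or cord each dissection kept is not given, and its part in these values was not tested.

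**Figure D2:**
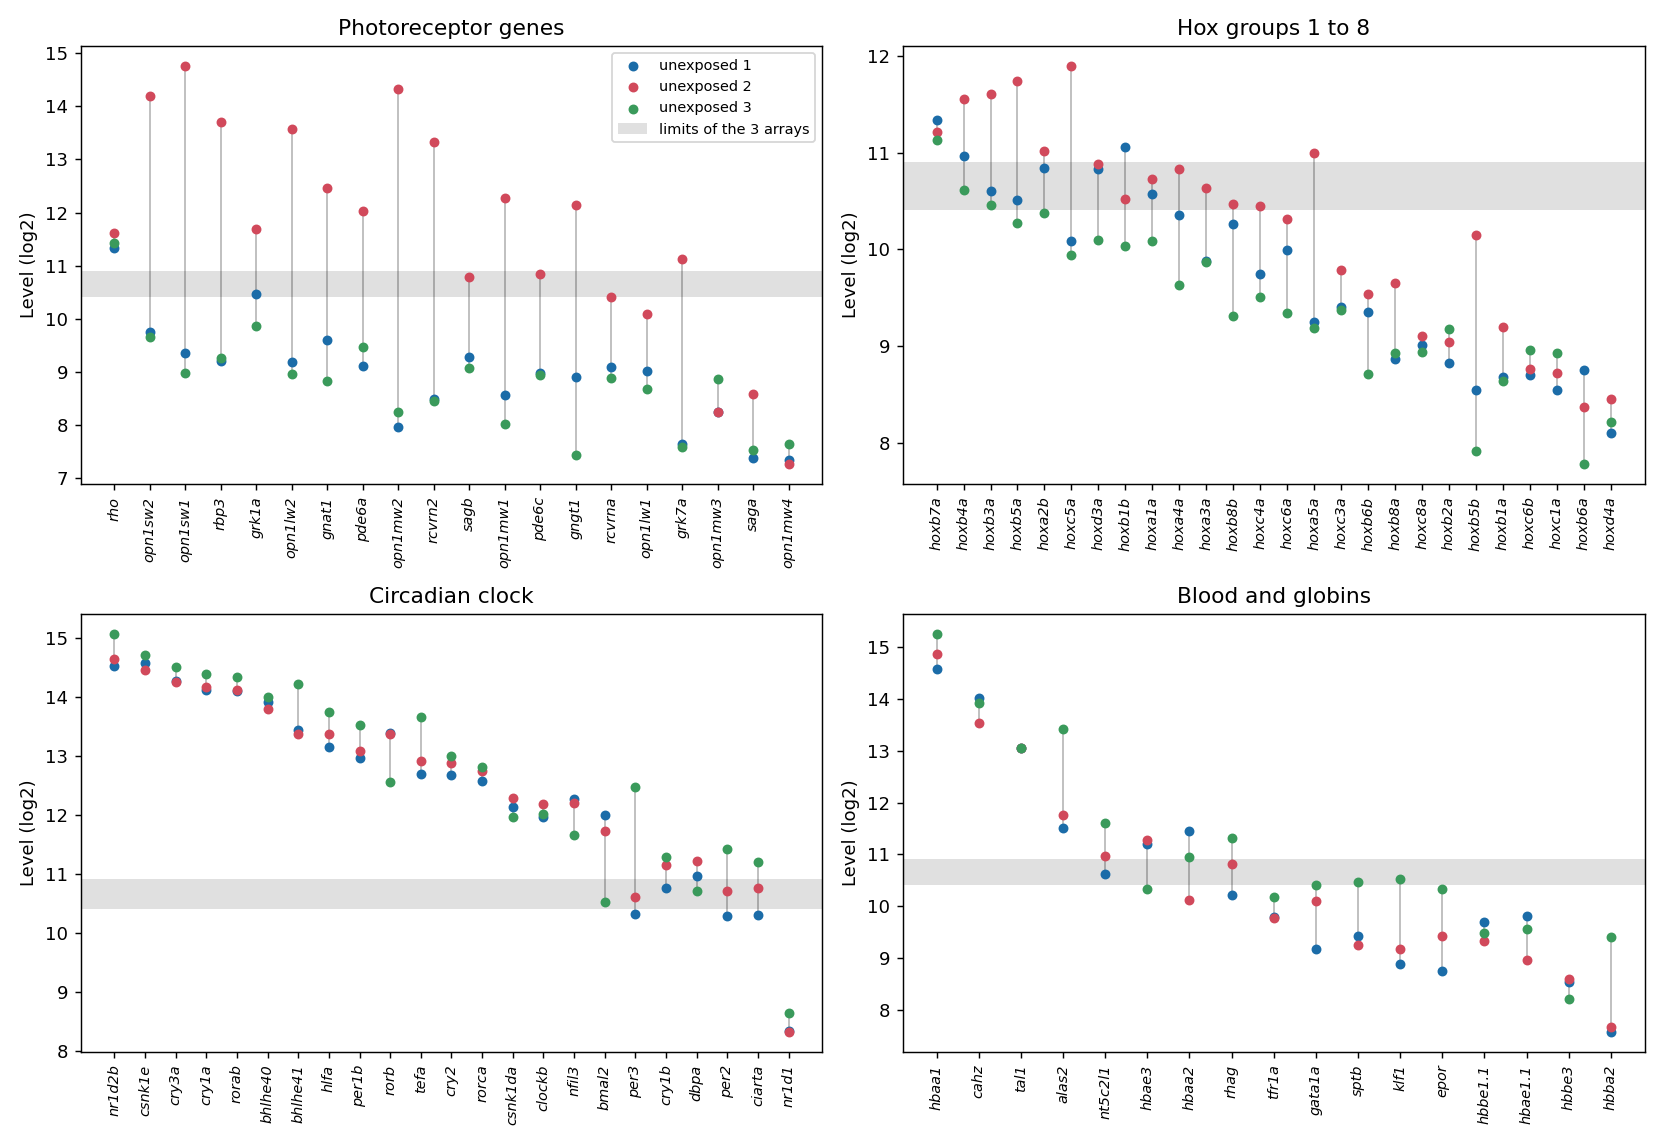
Level (log2, y axis) in unexposed 1 (blue), 2 (red) and 3 (green) of each measured gene (x axis, ordered by mean) in 4 groups; the grey line joins a gene's lowest and highest fish and the band spans the 3 array limits, 10.41 to 10.91. Unexposed 2 is highest in 18 of 20 photoreceptor genes and in 20 of 26 hox genes, beside 37.0% of all named genes. Both sets were drawn after values were seen. Unexposed 3 is highest in 17 of 23 clock genes and in 11 of 17 blood genes, beside 35.6%.

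Unexposed 3 was most often the highest fish in the clock and blood lists. Of 23 clock genes, 17 were highest in unexposed 3, beside 35.6% of all named genes, and 1 of the 23 exceeded both other fish by at least 1 log2 while 1 was lower by as much. The period gene per3, a clock repressor, read 10.31, 10.61 and 12.48, per2 read 10.29, 10.71 and 11.42, and the clock output factor tefa read 12.69, 12.92 and 13.67. The activator bmal2 went the other way, at 12.00, 11.73 and 10.52.

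In the same fish fkbp5 (Zv7, chromosome 6:21445366-21465361), a co-chaperone of the glucocorticoid receptor that stress hormone induces in vertebrates, stood at 12.10 against 14.73 and 14.69. The receptor gene nr3c1 read 14.77, 14.78 and 14.77, with 1 of its 2 targets above. The hour of dissection and the handling of each fish are not stated, and their part in these values was not tested.

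Among 17 blood genes 11 (64.7%) were highest in unexposed 3, and 4 exceeded both other fish by at least 1 log2. Of all named genes 35.6% were highest in unexposed 3, and 1.11% by at least 1 log2. The erythroid haem enzyme alas2 read 11.52, 11.77 and 13.42 and the erythroid factor klf1 8.88, 9.18 and 10.52. The adult beta globin hbba2 was within background, at 7.57, 7.66 and 9.41. Alpha globin hbaa1 was bright in every brain, at 14.58, 14.87 and 15.26. The summed signal of the list was 65798, 66809 and 92348 intensity units. The part of blood left in the tissue was not tested.

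The brightest named genes formed a plateau rather than a ranking. The 30 brightest ran from 15.31 to 15.48, a span of 0.17, while their median SD between fish was 0.048. All 30 were above the limit on every array, by 4.62 to 4.79, with limma standard errors of 0.24.

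Protein synthesis and folding supplied several of them. The ribosomal protein rps2 read 15.56, 15.47 and 15.42, the elongation factor eef2b 15.40, 15.35 and 15.38, and the chaperone hsp90ab1 15.45, 15.36 and 15.31. With them were rpl30, rpl21, the chaperones hsp90aa1.2 and hspa8, and vcp, an ATPase that extracts proteins for degradation. Only rps2 among the 30 had a within-background target, 1 of its 3, at a mean of 7.99.

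Energy metabolism was represented by mt-nd6, mt-cyb, mt-nd1 and mt-co2 of the mitochondrial genome, the ATP synthase subunit atp5l, the ADP/ATP carrier slc25a5, the citric acid cycle enzyme idh2 and gapdhs of glycolysis. Levels of gapdhs were 15.46, 15.47 and 15.44. For mt-nd6 they were 15.44, 15.42 and 15.44. Their ranges between fish were 0.037 and 0.021.

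The plateau also held genes of the neuron structure list: stmn2a, a microtubule regulator of growing axons (15.44, 15.51 and 15.47), sncb, a synuclein of presynaptic terminals (15.37, 15.43 and 15.30), and atp1a3a, the neuronal sodium pump subunit (15.41, 15.31 and 15.40). The GABA-synthesising enzyme gad2 (Zv7, chromosome 24:3934190-3959976) read 15.28, 15.22 and 15.47. Also among the 30 were olfm1b, clstn1 and tspan7, the tubulin tubb4b, the clathrin light chain clta, the proton pump subunit atp6v0ca, ndrg3a, crtac1a, serinc1 and cd63.

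**Figure D3:**
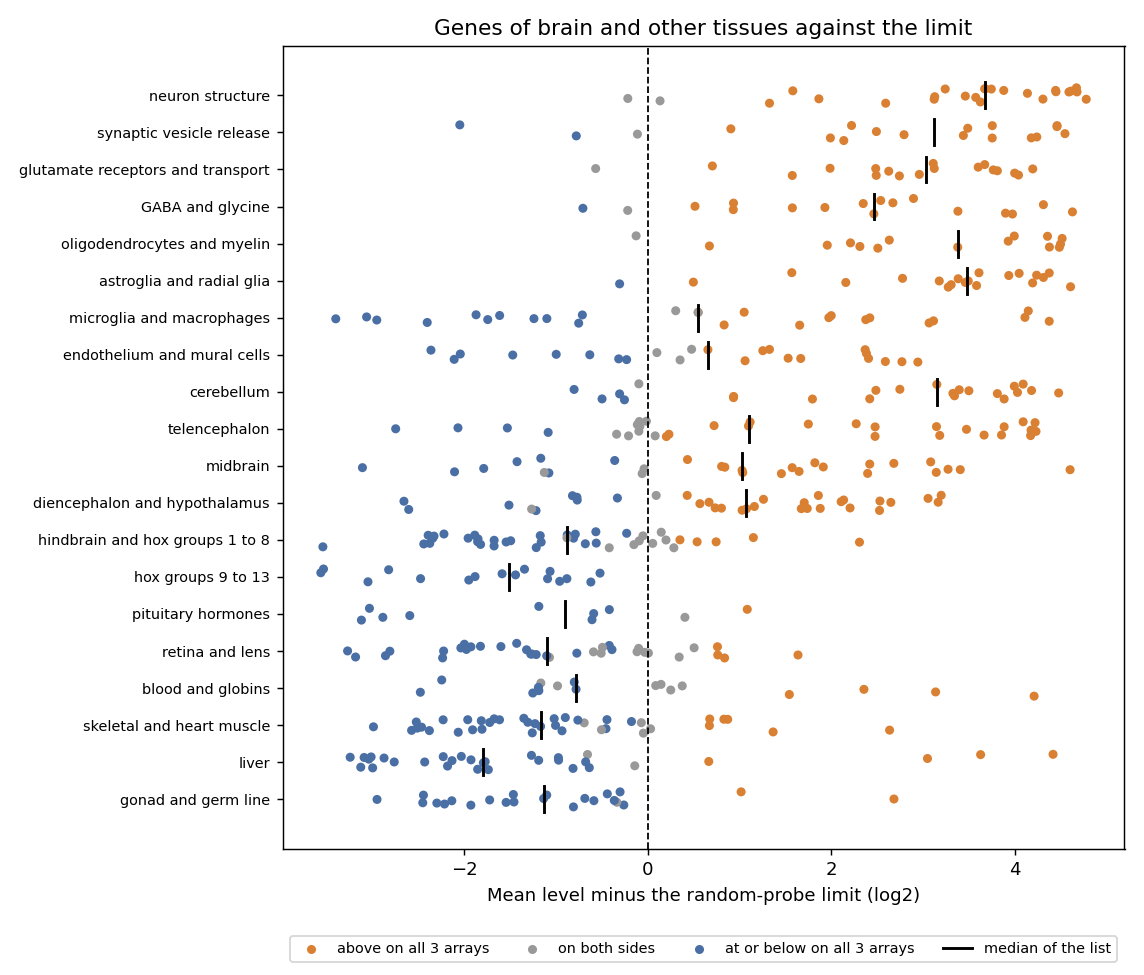
Mean level of each measured gene minus the random-probe limit (log2, x axis) in 20 gene lists (rows), coloured by its call on the 3 arrays; the bar is the list's median and the dashed line the limit. Lists of neurons, myelin and radial glia lie mostly to the right of the limit, with medians from 2.46 to 3.67, and lists of posterior hox, pituitary, muscle, liver and gonad genes lie mostly to its left, with medians from -0.90 to -1.79.

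Neuronal and synaptic genes were above background almost throughout. Of 25 genes of neuron structure, 23 (92.0%) were above, beside 60.6% of all named genes, and 2 were mixed. The median was 3.67 above the limit. The RNA-binding protein elavl4 of postmitotic neurons read 15.36, 15.30 and 15.26, and the growth-cone protein gap43 15.16, 15.21 and 15.06. The lowest member was dpysl3, a developmental axon-guidance protein, at 10.58, 10.37 and 10.48.

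For vesicle release, 15 of 18 genes (83.3%) were above, beside 60.6% of all named genes, with a median of 3.12. The SNARE protein snap25a (Zv7, chromosome 20:28034363-28077337) read 15.27, 15.23 and 15.22, and its partner vamp2 15.21, 15.20 and 15.05. Syntaxin stx1a was within background at 9.85, 10.08 and 9.82. The complexin cplx4a, known from retinal ribbon synapses, was within background at 8.01, 10.01 and 7.91 and was again highest in unexposed 2.

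Receptors and transporters of fast transmission followed. Of 18 glutamate genes 17 (94.4%) were above and none was within background, beside 60.6% and 29.2% of all named genes. The median was 3.04. The AMPA receptor subunit gria2b read 14.94, 14.75 and 14.98 and the vesicular glutamate transporter slc17a6a 14.55, 14.27 and 14.56. The third vesicular transporter, slc17a8, was mixed at 9.86, 9.77 and 10.75.

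Of 17 GABA and glycine genes 15 (88.2%) were above, beside 60.6% of all named genes, with a median of 2.46. The receptor subunit gabra5 read 15.10, 15.09 and 14.82 and the vesicular transporter slc32a1 14.73, 14.65 and 14.63. The glycine receptor subunit glra3 was the one within background, at 9.93, 9.96 and 10.07. Acetylcholine genes were fewer: 3 of 10 were above, led by ache, which breaks acetylcholine down, at 14.47, 14.36 and 14.67. The vesicular transporter slc18a3b, which marks cholinergic neurons, was within background at 9.73, 9.54 and 9.47, and so was the muscle receptor subunit chrna1 at 7.61, 7.61 and 7.66.

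Of 27 monoamine genes, 15 (55.6%) were above and 9 (33.3%) were within background, near the 60.6% and 29.2% of all named genes, and the median was 0.88. Tyrosine hydroxylase th, the rate-limiting enzyme of dopamine synthesis, read 11.83, 12.00 and 12.00 and the serotonin enzyme tph2 12.42, 11.98 and 12.77. Histamine receptor hrh3, a presynaptic brake on release, was the brightest member at 14.28, 14.35 and 13.71. The noradrenaline enzyme dbh (9.62, 10.40 and 9.64) and the serotonin-neuron factor fev (9.63, 9.59 and 9.94) were within background.

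Of 28 voltage-gated channel genes, 20 (71.4%) were above, beside 60.6% of all named genes, with a median of 1.89. The potassium channel partner kcnip3a read 14.50, 14.66 and 14.44 and the sodium channel scn8aa 14.05, 13.88 and 14.26. The muscle sodium channels scn4aa (8.45, 8.49 and 8.16) and scn4ab (7.85, 9.14 and 8.25) were within background. Calcium sensors gave 23 of 32 above (71.9%, beside the same 60.6%), with a median of 2.75. Among them were calm1a at 15.21, 15.24 and 15.16 and camk2a, a kinase of excitatory synapses, at 15.17, 15.30 and 14.56.

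Myelin was bright in every brain. Of 15 oligodendrocyte genes 14 (93.3%) were above and none was within background, beside 60.6% and 29.2% of all named genes. The median was 3.38. The proteolipid gene plp1b read 15.24, 15.09 and 15.24, the basic protein gene mbpa 15.19, 14.91 and 15.12 and mpz, used in central myelin by fish, 15.16, 15.12 and 15.25. The paired copy plp1a was mixed at 10.36, 10.48 and 10.86, the lowest of the list.

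Radial glia were equally clear. Of 20 astroglia and radial glia genes 19 were above, with a median of 3.48. The lipid carrier fabp7a read 15.28, 15.32 and 15.31, the glutamine synthetase glula 14.91, 14.85 and 15.04 and the intermediate filament gfap 13.70, 13.35 and 13.36. Brain aromatase cyp19a1b (Zv7, chromosome 25:1424055-1437720) read 14.02, 13.62 and 14.36. The gonadal copy cyp19a1a was within background at 8.13, 8.55 and 9.04 on both of its targets. The member within background was aldoca, a glycolytic aldolase of glia and Purkinje cells, at 10.50, 10.58 and 10.07.

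Microglial genes divided. Of 26 genes of microglia and macrophages, 13 (50.0%) were above and 11 (42.3%) within background, beside 60.6% and 29.2% of all named genes. The list median was 0.55. Those above included apoeb, a lipid carrier abundant in fish microglia (14.99, 15.42 and 14.79, 1 of 3 targets), cd74a of antigen presentation (14.97, 14.99 and 14.56) and the myeloid factor irf8 (11.34, 11.94 and 11.95). Other genes that mark these cells were within background: csf1ra read 7.56, 7.87 and 7.80, p2ry12 9.77, 9.36 and 9.22, and mpeg1.1 9.98, 10.40 and 9.56. The cytokines il1b, tnfa and il10 were within background too, il1b at 8.38, 9.17 and 8.92. Of 18 genes of other leukocytes 5 (27.8%) were above, the highest by 3.08. The T-cell genes lck (8.55, 9.15 and 8.61) and cd8a (7.75, 7.80 and 7.73) were not.

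Vessels and coverings of the brain were measured in part. Of 23 endothelial and mural genes 12 (52.2%) were above, beside 60.6% of all named genes, with a median of 0.65. Among them were clec14a (13.54, 13.40 and 13.45) and the blood-brain barrier lipid transporter mfsd2ab (13.16, 13.29 and 12.85). The tight-junction gene cldn5a read 11.97, 12.15 and 11.94, whereas its copy cldn5b read 8.52, 8.72 and 8.51. Of 21 meningeal and connective-tissue genes 12 (57.1%) were above, near that share of all named genes. The brightest was epd, an ependymin secreted into brain fluid by leptomeningeal cells in fish, at 14.66, 14.34 and 14.39. Of 19 genes of ependyma and motile cilia 9 (47.4%) were above, and the cilia master factor foxj1a was mixed at 11.20, 9.72 and 10.86.

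Genes were also listed by brain region, though whole-brain RNA cannot place a listed gene's signal in that region. Above were 62.5% of the telencephalon list, 64.3% of the midbrain list and 69.7% of the diencephalon list, beside 60.6% of all named genes. Of 23 cerebellar genes 18 (78.3%) were above, with a median of 3.15, led by pvalb7, the Purkinje-cell parvalbumin, at 15.19, 15.19 and 15.13. The granule-cell factor neurod1 read 14.63, 14.45 and 14.65 and the synaptic organiser cbln1 13.86, 13.87 and 13.80. The progenitor gene atoh1a was within background at 10.73, 10.19 and 9.66, and atoh1b at 10.21, 9.68 and 9.79.

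In the telencephalon list 20 of 32 were above and 8 were mixed, with a median of 1.11. The factor zic2a read 14.97, 14.75 and 15.06, bcl11ba 14.48, 14.65 and 14.52, and emx3, a marker of the pallium, 12.04, 12.27 and 11.06. The pallial gene eomesb (10.35, 10.02 and 11.08) and foxg1b (10.40, 11.29 and 9.37) were mixed. Of 28 midbrain genes 18 were above, with pax6b at 15.29, 15.23 and 15.37 and the midbrain-hindbrain gene en2b at 12.35, 12.00 and 12.45.

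Of 33 diencephalic and hypothalamic genes 23 were above, with a median of 1.08, including lef1 (13.70, 13.80 and 14.17) and six3a (13.20, 13.35 and 13.12). The hypothalamic factors rx3 (9.93, 10.11 and 9.72) and nr5a1a (10.31, 10.36 and 10.41) were within background.

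Of 40 hindbrain genes, mostly hox groups 1 to 8, 5 (12.5%) were above and 26 (65.0%) were within background. Among all named genes those shares were 60.6% and 29.2%. The list's median was -0.88. Those above were mafba (12.88, 13.04 and 13.08), mnx2b (11.94, 12.31 and 11.28), tlx3b (11.05, 11.34 and 11.92), hoxb7a (11.34, 11.22 and 11.13) and hoxb4a (10.97, 11.56 and 10.61). Without unexposed 2 the count above was 5, though leaving out an array cannot lower it. All 16 measured genes of hox groups 9 to 13, which pattern the trunk and tail, were within background, the highest being hoxc12b at 10.30, 10.27 and 9.95.

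**Figure D4:**
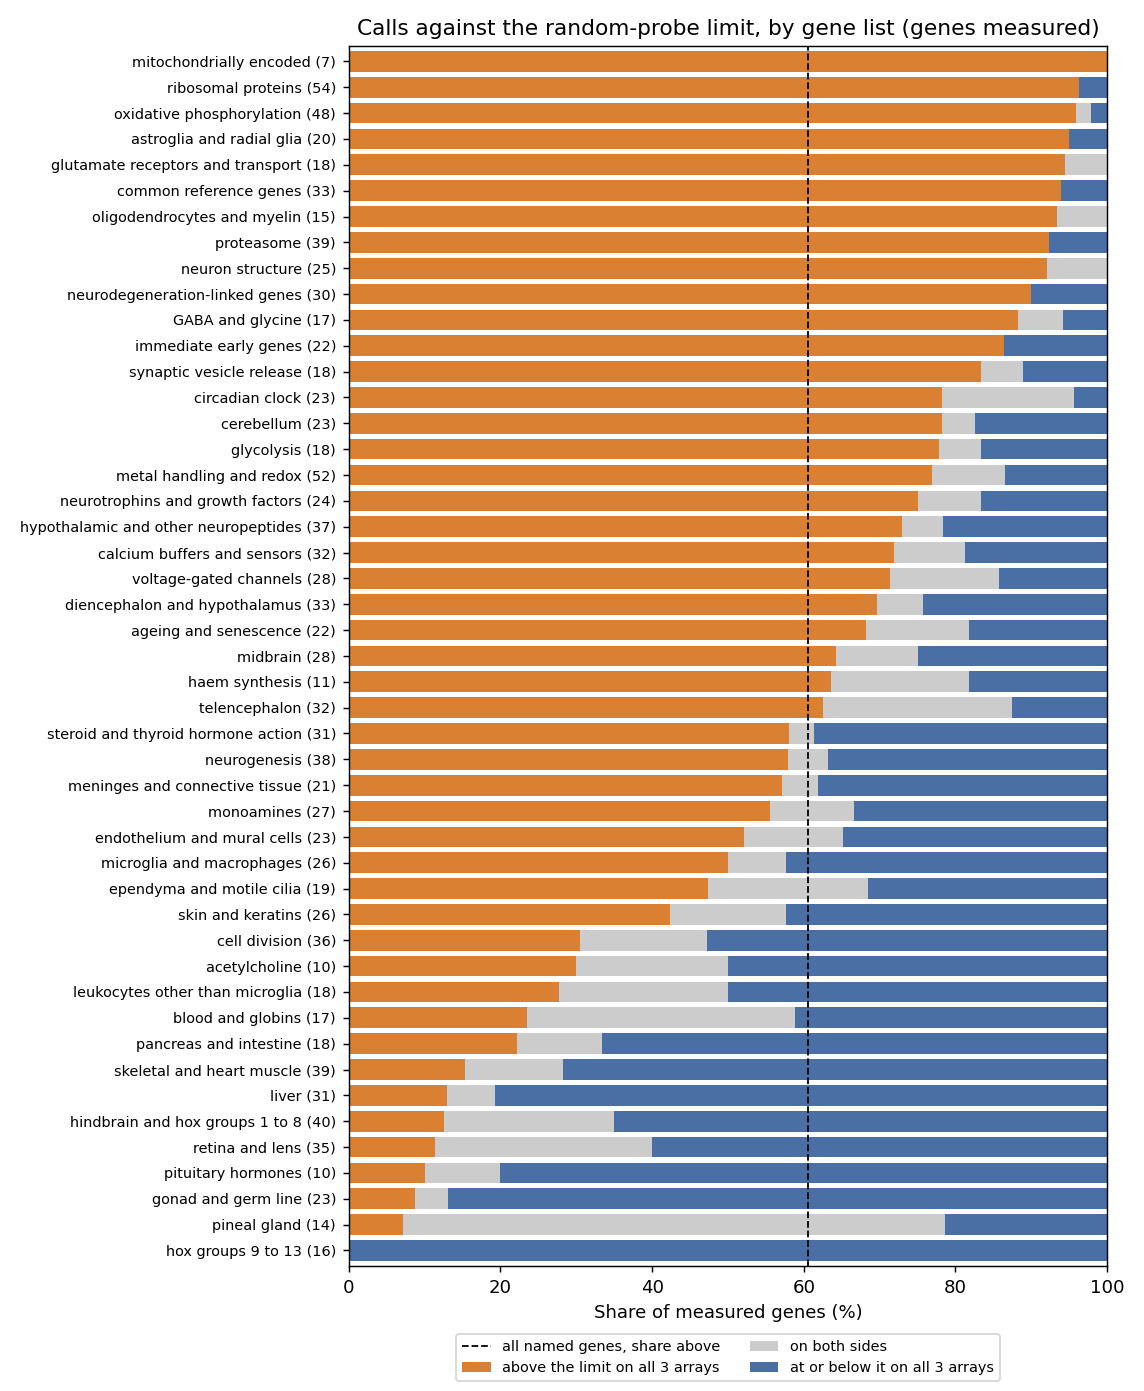
Share of the measured genes of each list (bars, %, number measured in brackets) that were above the limit on all 3 arrays (orange), on both sides (grey) or at or below it on all 3 (blue); the dashed line marks 60.6%, the share above among all 9135 named genes. The shares run from 7 of 7 mitochondrially encoded genes to 0 of 16 posterior hox genes.

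Of 37 neuropeptide genes 27 (73.0%) were above, beside 60.6% of all named genes, with a median of 1.46. The peptide gene adcyap1b (PACAP) read 15.36, 15.32 and 15.10, the granule protein scg2b 15.09, 14.98 and 15.05, and the feeding peptide npy 14.88, 14.78 and 14.44. Thyrotropin-releasing hormone trh read 14.18, 14.44 and 13.99 and vasotocin, listed as avp, 14.00, 13.28 and 13.76.

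Several peptides were not distinguished from background. Hypocretin hcrt, the wakefulness peptide, read 9.11, 9.77 and 9.0 and the growth-hormone-releasing hormone ghrh 7.67, 7.77 and 7.53. Melanin-concentrating hormone pmch (11.19, 10.32 and 11.09) and gnrh3, which drives reproduction (10.37, 11.44 and 10.07), were mixed.

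Pituitary hormones were mostly within background, in 8 of 10 genes (80.0%), beside 29.2% of all named genes. Of 10 pituitary genes, pomca, also made in the hypothalamus, was the one above, at 12.18, 11.24 and 11.91. Growth hormone gh1 read 7.63, 7.86 and 7.49, luteinizing hormone subunit lhb 7.66, 7.63 and 7.43, and prolactin prl 10.41, 10.14 and 10.27. The second prolactin gene prl2 was mixed at 12.41, 10.76 and 10.12. It exceeded the limit clearly in unexposed 1, lay almost at the limit in unexposed 2 and was below it in unexposed 3.

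Steroid and thyroid signalling gave 18 of 31 above (58.1%, near the 60.6% of all named genes) and a median of 1.01. The oestrogen receptor esr1 read 12.25, 12.23 and 12.36, the androgen receptor ar 11.58, 11.70 and 11.84 and the thyroid receptor thrb 13.30, 12.85 and 13.63. The receptor esr2a was within background at 10.50, 10.39 and 9.74, as was star, which delivers cholesterol for steroid synthesis, at 10.39, 10.38 and 10.40. Growth factors gave 18 of 24 above (75.0%, beside the same 60.6%). Among those above was bdnf, a neuronal survival factor, at 14.44, 14.72 and 14.37, while ntf3 read 8.55, 9.30 and 8.57.

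Of 38 neurogenesis genes 22 (57.9%) were above, near the 60.6% of all named genes, with a median of 0.69. The stem-cell factor sox2 read 14.14, 14.27 and 14.05 and the differentiation inhibitor id2a 14.66, 14.79 and 14.89. The proneural factor ascl1a was above at 11.27, 11.33 and 11.12, and the proneural factor neurog1 (8.39, 8.35 and 8.37) and the Notch ligand dla (9.53, 9.02 and 8.98) were within background.

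Of 36 cell-division genes 11 (30.6%) were above and 19 (52.8%) were within background, beside 60.6% and 29.2% of all named genes. The median was -0.39. The replication clamp pcna read 12.21, 12.39 and 11.92 and the topoisomerase top2a 12.10, 11.83 and 11.95, the latter on 1 of 4 targets. The highest member of the list lay 2.78 above the limit. Mitotic genes within background included plk1 at 8.40, 8.33 and 8.92, cdc20 at 9.20, 8.78 and 8.94 and ccnb1 at 10.03, 10.11 and 9.49.

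Housekeeping functions were above background nearly without gaps. All 7 mitochondrially encoded genes were above, as were 46 of 48 genes of oxidative phosphorylation, 52 of 54 ribosomal proteins, 36 of 39 proteasome genes and 31 of 33 common reference genes. Exceptions were genes read by a single target. The gene rpsa, a ribosomal protein, read 7.34, 7.31 and 7.31 on its only target, and the complex I subunit ndufs8b 7.67, 7.91 and 7.59. Glycolysis gave 14 of 18 above (77.8%, beside 60.6% of all named genes), but its pyruvate kinase pkmb read 8.95, 8.61 and 9.03.

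Genes of metal handling and redox defence were above in 40 of 52 (76.9%, beside 60.6% of all named genes), with a median of 1.77. Caeruloplasmin cp, a copper-carrying ferroxidase, read 15.23, 15.12 and 14.98, the metallothionein mt2 14.14, 14.17 and 13.61 and the superoxide dismutase sod1 14.15, 14.13 and 14.07. The divalent metal importer slc11a2, which carries iron into cells, read 13.48, 13.55 and 13.54. The iron hormone hamp (9.70, 9.70 and 9.75) and the zinc importer slc39a4 (9.85, 9.75 and 9.27) were within background. Haem synthesis gave 7 of 11 above (63.6%, near the 60.6% of all named genes). The housekeeping form of its first enzyme, alas1, read 14.24, 14.45 and 14.24.

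Genes linked to neurodegeneration in people were above in 27 of 30, with a median of 2.66. The amyloid precursor gene appa read 14.95, 15.04 and 15.03, the huntingtin gene htt 13.72, 13.84 and 13.77 and the mitochondrial kinase pink1 13.64, 13.58 and 13.38. The kinase gene lrrk2 read 11.42, 11.75 and 12.59, on 1 of 3 targets.

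Of 22 ageing and senescence genes 15 (68.2%) were above, beside 60.6% of all named genes, with a median of 1.16. The longevity factor foxo3b read 14.41, 13.70 and 14.35. The senescence brake cdkn1a (9.83, 9.34 and 9.61 at its brightest of 2 targets) and the telomerase gene tert (9.82, 9.95 and 9.34) were within background. No younger brain was measured in these arrays, so these are levels at 12 months and not changes with age.

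Activity-linked genes were mostly above background. Of 22 immediate early genes 19 (86.4%) were above, beside 60.6% of all named genes, with a median of 2.24. They included egr1 at 14.10, 14.23 and 14.23 and npas4a at 12.56, 13.58 and 12.81. Unexposed 2 was highest in 17 of the 22 (77.3%), beside 37.0% of all named genes. Unexposed 3 was lower than both others by at least 1 log2 in 2, beside 0.602% of all named genes. Of the clock list 18 of 23 (78.3%) were above, beside 60.6% of all named genes, led by nr1d2b at 14.53, 14.65 and 15.08. Without unexposed 3 the count was 18, though leaving out an array cannot lower it.

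Genes known from other organs were read as well, in lists chosen with earlier results of these data known. Of 31 liver genes 4 (12.9%) were above and 25 (80.6%) were within background, beside 60.6% and 29.2% of all named genes. The list's median was -1.79. Those above were cp, the iron carrier tfa (14.34, 14.19 and 14.43), the retinol carrier rbp4 (13.47, 13.53 and 14.22) and the coagulation factor f10 (11.33, 11.45 and 11.30). Among those within background were fabp10a at 9.33, 9.69 and 9.49, apoa1a at 10.01, 9.66 and 9.48 and the yolk precursor vtg2 at 9.55, 9.47 and 9.26.

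Of 39 muscle genes 6 (15.4%) were above and 28 (71.8%) within background, beside 60.6% and 29.2% of all named genes. The list's median was -1.17. Without unexposed 2 the count above was 6, though leaving out an array cannot lower it. The tropomyosin tpm2 read 13.29, 13.32 and 13.38, while the myosin heavy chain myhz2 read 7.76, 7.82 and 7.54 and the cardiac myl7 9.04, 8.78 and 8.53. Of 26 skin and keratin genes 11 (42.3%) were above, beside 60.6% of all named genes. In that list krt8 read 14.46, 14.69 and 14.14 and the junction gene cdh1 7.12, 7.17 and 6.98. Unexposed 2 was highest in 19 of those 26 (73.1%), beside 37.0% of all named genes.

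Of 23 gonad and germ-line genes 2 (8.70%) were above, beside 60.6% of all named genes. These were sycp3 of the meiotic chromosome axis (13.42, 13.35 and 13.36, on 1 of 3 targets) and cyp17a1 (11.87, 11.65 and 11.61, on 1 of 5 targets). The testis gene amh read 8.63, 8.91 and 8.76 and the germ-cell gene dazl 9.93, 10.39 and 9.32. Of 18 pancreas and intestine genes 4 (22.2%) were above, among them fabp2 at 11.72, 11.67 and 11.73 and ins at 11.52, 11.43 and 11.01.

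Of 35 retina and lens genes 4 (11.4%) were above, 21 (60.0%) within background and 10 mixed. Of 14 pineal genes 1 (7.14%) was above and 10 were mixed. Among all named genes 60.6% were above and 29.2% within background. Without unexposed 2 the retina and lens count was 4 and the pineal count was 2, but leaving out an array cannot lower a count. On the single arrays 5, 12 and 7 retina and lens genes exceeded the limit. Among 17 blood genes 4 (23.5%) were above, 6 without unexposed 1, 5 without unexposed 2 and 5 without unexposed 3.

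Among 623 pairs of named genes whose symbols differ only in a final a and b, both members were above in 286 (45.9%) and both within background in 97 (15.6%). In 127 pairs (20.4%) one was above and the other within background, and the remaining 113 (18.1%) had a mixed member. Taken singly, 60.6% of all named genes were above and 29.2% within background. Pairs of unrelated genes were not counted, so whether copies differ more or less often than such pairs was not tested. The pairs named here were chosen for the widest gaps. In the PACAP genes adcyap1b was above with a mean of 15.26 and adcyap1a within background at 8.93. For oxct1a and oxct1b, which let cells burn ketone bodies, the means were 14.81 and 8.53.

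The actin-capping genes capza1a and capza1b followed at 14.81 and 8.92, and the phosphatase inhibitors ppp1r14aa and ppp1r14ab at 14.70 and 8.85. The b copy was the one above for the membrane linkers ezra and ezrb, at 7.98 and 13.76, and for trnau1apa and trnau1apb, at 7.20 and 12.76. The a gene was above and the b gene within background for ubald1a and ubald1b, fabp4a and fabp4b, and ankrd13a and ankrd13b. The last of these carry a and b as names of separate vertebrate genes and are not fish duplicates. Each copy has probes of its own, so only the calls and not the sizes of these differences can be read.

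Most genes above background varied little, and 205 named genes above (3.70%) had a range of at least 1 log2. The 15 widest began with fkbp5, range 2.63, and rorcb, a nuclear receptor of the clock's ROR family, at 13.30, 12.99 and 10.77. The chromatin organiser ctcf read 14.83, 14.75 and 12.73, and the antibody heavy chain ighm 12.72, 12.36 and 10.80, the latter on 1 of 2 targets. The early gene egr2a read 11.87, 12.36 and 10.54, on 1 of 3 targets. In these 5 genes unexposed 3 was the lowest and lay apart from the other 2.

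Some of the 15 were high in a single fish. The hunger peptide agrp read 13.54, 11.56 and 12.03, highest in unexposed 1, and npffl, a peptide related to neuropeptide FF, 13.07, 15.12 and 13.47, highest in unexposed 2. The mitochondrial phosphate carrier slc25a3a also peaked in unexposed 2, at 11.72, 13.55 and 11.91. The RNA-binding factor nono was highest in unexposed 1, at 13.07, 11.48 and 11.12, on 1 of 2 targets.

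The cytoskeletal scaffold ppp1r9a (10.93, 11.40 and 13.04, 1 of 2 targets), the dynactin subunit dctn4 (11.54, 12.91 and 13.40) and alas2 (1 of 2 targets) were highest in unexposed 3. The kinase mapk6 (12.17, 13.01 and 11.04), the channel subunit lrrc8db (12.90, 12.36 and 10.86) and znfl1 (12.42, 12.60 and 10.64, 2 of 5 targets above) were lowest there. For 9 of the 15 genes, fkbp5 and ctcf among them, unexposed 3 was the lowest fish.

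**Figure D5:**
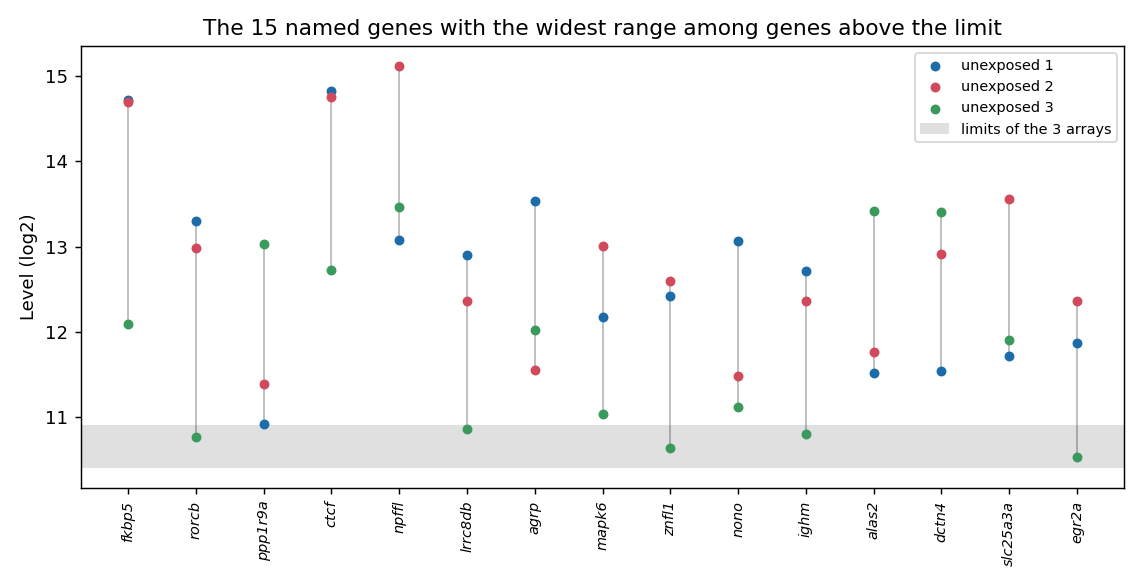
Level (log2, y axis) in unexposed 1 (blue), 2 (red) and 3 (green) of the 15 named genes (x axis) with the widest range among genes above the limit on all 3 arrays; the band spans the array limits, 10.41 to 10.91. The widest, fkbp5, is 14.73, 14.69 and 12.10, and unexposed 3 is the lowest fish in 9 of the 15.

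The limit itself fell among genes whose calls are not settled. Just above it by mean lay acp5b (10.75, 10.79 and 10.54), neil1, angptl6, rad9a and hspb7, at distances up to 0.0036. Just below lay hcrtr2, a hypocretin receptor (10.60, 10.82 and 10.66), smc4, itpr2, grhl2a and wee1, at distances down to -0.0046. All 10 were mixed, and they were chosen for lying nearest the limit.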

How the data were processed

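RNA of whole brains was reverse transcribed, labelled and hybridised to 1-colour NimbleGen expression arrays, per the labels' protocols. The deposited target values are intensities summarised with RMA, per the submitters' processing notes, and their log2 was taken here. The software version and the settings are not given in the sources used here. The deposited series table holds linear probe intensities with the same maximum on every array, so the values had been normalized between arrays, and levels are relative to each array's whole distribution. It supplied the random probes.

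Samples were grouped by their titles. Target rows named as random sequence were left out. Targets were named through RefSeq accessions and symbol synonyms (assembly GRCz12tu, used for names only), and coordinates are the array's own, in build Zv7. Values minus each array's 95th percentile of random probes were tested against 0 with limma 3.58.1 in R 4.3.3, two-sided, with Benjamini-Hochberg adjustment. The test was run on simulated data with independent noise for each target. That simulation did not model the limit that all targets of an array share. Summaries used Python 3.11.15 with numpy 2.4.6 and pandas 2.3.3.

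The gene lists and the rule for named genes were chosen with earlier results of these data known: the 30 brightest genes, the highest and lowest members and defining genes of each list, the 15 widest ranges, the 10 widest gaps between copies and the 10 genes nearest the limit. Other list members, and genes that set one fish apart, were picked after their values were seen. Alternatives were other limits, the series table, a repeated quantile normalization, agreement of at least 2 probes, the median target of a gene, and each brain left out. Precision rests on having 3 arrays. Females and other ages were not analysed here, and no probe sequence was used. Results of some genes that the rule names are not reported here.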

Additional observations from a re-analysis of the deposited data

How the results depend on the processing

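The choice of limit mattered most. With the 99th percentile of random probes 12620 targets were above, and 11489 in limma. In lists, 5 cell-division genes were then above, 14 diencephalic, 3 ependymal, 1 gonad, 2 haem, 1 hindbrain, 2 leukocyte, 3 meningeal, 9 monoamine, 2 muscle, 5 skin and 10 steroid genes, and 0 pancreatic, pituitary or retina and lens genes. With the 90th percentile, 18 cell-division, 6 gonad, 12 hindbrain, 1 posterior hox, 8 leukocyte, 4 pineal, 3 pituitary, 8 retina and lens and 11 muscle genes were above. With the median of 3 random probes in place of single ones, the counts were 5 acetylcholine, 8 blood, 21 cell-division, 14 ependymal, 9 gonad, 15 hindbrain, 2 posterior hox, 9 leukocyte, 8 pancreatic, 4 pineal, 5 pituitary, 10 retina and lens, 12 muscle and 17 skin genes. That limit left 23891 targets and 6711 named genes above, and 10945 targets within background. The series table gave 3 hindbrain, 2 pineal and 2 pituitary genes. The median target of a gene gave 0 gonad, 3 leukocyte and 2 retina and lens genes. Leaving out 1 brain gave 1 to 2 pineal genes, the higher without unexposed 2, and 1 to 2 pituitary genes, the higher without unexposed 3. Other counts stayed within 1.5 times. Fewer genes pass a higher limit by construction; the cause of the other shifts was not tested.

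Of the 140 named genes that were above, 109 remained so at the 99th percentile, 132 in the series table and 137 with 2 probes required. For the series table, the log2 probe values of a target were averaged here in place of the RMA summary. The mean level of 122 of 244 named genes moved by over 1 SD with those averages, and of 0 under repeated quantile normalization. Leaving out a brain cannot remove a call of above. No paired analysis was possible because only the unexposed group entered and no groups were compared.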

Other observations

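Targets differed in how often they were above the limit by the kind of sequence they were designed on. The share was 64.3% of 941 targets from full-length cDNA clones, 60.3% of 6756 from UniGene-based sequences, 51.1% of 3055 from RefSeq, 38.3% of 10153 from Ensembl transcripts and 35.4% of 1156 from single expressed sequence tags. By name, 56.3% of targets with a zebrafish symbol were above and 56.9% of the 11505 with a homologue's name or another symbol. The share was 36.4% of those with a clone-type symbol and 37.8% of those with no name.

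Among chromosomes of build Zv7, 39.5% of 1560 targets on chromosome 22 were above, the lowest share of the 25 chromosomes, which otherwise ran from 46.7% on chromosome 15 to 56.3% on chromosome 11. On chromosome 4 the share was 34.1%, 37.6% and 38.1% in the 5 Mb bins starting at 25, 30 and 35 Mb, and 48.1% to 61.3% in the others.

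Reverse-strand targets, 1380 of expressed sequences, were above in 38.3%. Where the forward target was above, the reverse target was above in 411 pairs, within background in 33 and mixed in 57. Where the forward target was within background, the reverse target was above in 41 pairs and within background in 569.

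Outside the lists, the genes highest in unexposed 2 alone included pdcb (7.38, 11.31 and 7.38), a phosducin, and prph2b (7.60, 10.82 and 7.63), a peripherin of photoreceptor discs. In unexposed 3 alone, ifi44f1 (8.19, 8.83 and 11.38), cxcl11.6 (8.49, 8.98 and 11.06) and nos2a (9.02, 8.66 and 10.73) were highest, and in unexposed 1 slc13a1 (12.81, 9.41 and 10.49) and pmelb (13.20, 10.27 and 10.89), a pigment-cell gene. These were picked for their differences and carry no test.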
